A study of Mus musculus with 13 samples.

Results

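The comparison described here sets common lymphoid progenitors (CLPs) of Notch1+/dTAD mice against CLPs of WT mice. It was made on 8 of the 13 RNA-Seq libraries of the series, which are the 3 Notch1+/dTAD libraries (numbers 7, 9 and 14) and the 5 WT libraries (numbers 1, 2, 3, 10 and 11). Of the 24972 genes in the expression table, 9215 had a value above 0 in at least 1 of these 8 libraries, and the 4737 genes with at least 1 TPM in at least 3 of them were tested. TPM gives the share of a library's transcripts that a gene takes, scaled to gene length. In 3′ libraries such as these the scaling raises short genes over long ones, so a level is set beside that of the same gene in another library. The remaining 5 libraries of the series, from Notch1+/- mice (numbers 4, 5, 6, 12 and 13), share the WT libraries as controls and are given beside single genes only. Values are listed below in the order of these library numbers.

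Notch1 is a cell surface receptor whose intracellular part is released when a neighboring cell presents a ligand. In the nucleus the released part binds RBPJ on DNA and, through Mastermind-like proteins and its own transactivation domain (TAD), recruits coactivators that raise transcription. CLPs are bone marrow progenitors with B, T and NK cell potential, and they lie upstream of the thymic stages at which Notch1 signaling directs the T cell fate. The dTAD allele lacks the TAD and is carried beside a normal Notch1 allele, whereas Notch1+/- mice carry a normal and a null allele.

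All mice were on the C57BL/6 strain and 6 to 12 weeks old. CLPs had been sorted from bone marrow as DAPI-, lineage-negative, Sca1-low, cKit-low, CD127+ and CD135+ cells. The alleles are germline, so every cell of a mouse carries them, and the sorted cells are those present after development under the altered receptor. The question behind the comparison is which transcripts of CLPs depend on Notch1 transcriptional output. In bulk RNA of this kind, fewer cells of a type and less RNA per cell cannot be told apart.

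Notch1+/dTAD libraries held values for more genes than WT libraries. The number of genes above 0 TPM was 4973, 4706 and 5764 in Notch1+/dTAD and 4614, 3904, 3843, 4167 and 3744 in WT, so the groups did not overlap. The same held at 1 TPM or more, with 3984, 4168 and 4663 genes against 3855, 3465, 3179, 3298 and 3375. For either measure the 2-sided exact permutation test over the 56 possible assignments gave p = 0.0179, which is the smallest value this design allows, and p = 0.0357 after Benjamini-Hochberg adjustment over 4 library measures. The share of TPM in the 100 highest genes was 49.4% to 55.2% in Notch1+/dTAD and 52.5% to 57.4% in WT (exact permutation p = 0.179, adjusted p = 0.238). Cytosolic ribosomal protein genes took 32.9% to 38.9% and 33.6% to 40.9% (exact permutation p = 0.661, adjusted p = 0.661). Read depth cannot be taken from TPM, so whether depth moved with the number of genes listed was not tested.

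**Figure D1:**
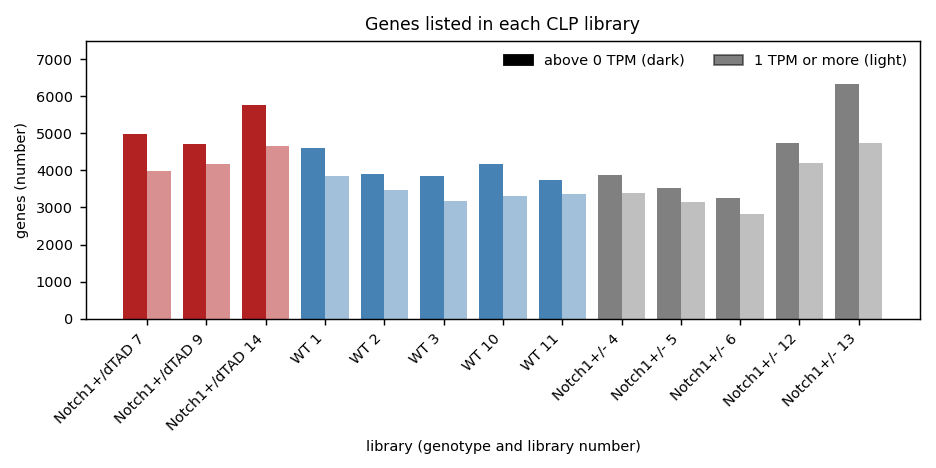
Number of genes (vertical axis) with a value above 0 TPM (dark bars) and at 1 TPM or more (light bars) in each library, colored by genotype. The 3 Notch1+/dTAD libraries list 4706 to 5764 genes and the 5 WT libraries 3744 to 4614, while the Notch1+/- libraries range from 3264 to 6326.

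Sex-linked transcripts varied by library number. Xist, the RNA that coats the inactive X chromosome, was at 0, 0.0353 and 139.5 TPM in Notch1+/dTAD and at 0.261, 0, 0, 187 and 172 in WT. It was therefore high in libraries 14, 10 and 11 and near 0 in libraries 1 to 9. Eif2s3y, a Y-linked gene, was at 0.103, 0.175 and 0 TPM in Notch1+/dTAD and at 25.5, 0, 29.1, 0 and 0 in WT. The labels give no sex for these mice, and the part of this difference in the results below was not tested beyond a fit with the library number range as a term, whose counts are given with the other settings.

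No gene passed an adjusted p of 0.05 in the comparison (0 of 4737, 0%), where p came from limma on log2(TPM + 1) with Benjamini-Hochberg adjustment. The smallest adjusted p was 0.395. At an unadjusted p under 0.05, 196 genes (4.14%) had higher and 41 genes (0.866%) had lower values in Notch1+/dTAD. In 113 genes (2.39%) every Notch1+/dTAD library lay above every WT library, and in 35 genes (0.739%) every Notch1+/dTAD library lay below. Such genes are called non-overlapping in what follows, and none of them passed the adjusted threshold. The directions were not equally open. Of the tested genes, 46 had 1 TPM or more in no WT library and so passed the filter through the Notch1+/dTAD libraries alone. These 46 had to be higher. A lower gene needs a value above 0 in every WT library. Genes listed in 3 or 4 of the 8 libraries could not be lower, and 31 and 16 of them were higher. Among genes listed in all 8 libraries 17 were higher and 20 lower, so the excess of higher genes lay in the others.

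Differences were larger in genes that some libraries did not list. Over all tested genes the median log2 difference was 0.47, and 61.8% of genes had a positive value. The median was 0.18 over the 1118 tested genes listed in all 8 libraries and 0.69 over the 3619 listed in fewer, while the share of genes with a positive value was 59.0% and 62.7%. After quantile normalization, which gives each library the same distribution of values, the median over all tested genes was -0.03, and the non-overlapping genes were 78 higher and 121 lower in Notch1+/dTAD in place of 113 and 35. Of the 113 higher genes 75 were non-overlapping after quantile normalization too, as were all 35 lower genes. Log2 differences below are therefore also given relative to the median of all tested genes. Some positive list medians below turned negative after quantile normalization. These were CLP sort markers (-0.87), lymphoid priming (-0.33), lymphoid transcription factors (-0.04), B lineage markers (-0.05) and the Notch nuclear complex (-0.67). The others were gamma chain receptors and JAK-STAT (-0.60), apoptosis (-0.80), aminoacyl-tRNA synthetases (-0.34), iron-sulfur assembly (-0.53) and immediate early genes (-0.24). The remaining list medians kept their sign. The standard error of a log2 difference had a median of 1.28 over genes listed in all 8 libraries and 1.99 over the others, so that a gene listed in some libraries only would need a very large difference to stand apart.

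The 4 genes behind the sort were present in both groups and did not separate them. Flt3, which encodes CD135, was at 138, 249.9 and 123 TPM in Notch1+/dTAD and 40.6, 93.9, 282, 142 and 144 TPM in WT. Il7r, which encodes CD127, was at 96.8, 122 and 11.4 TPM against 178, 128, 184, 9.3 and 1.07. Kit was at 0.108, 0 and 19 TPM against 118, 0, 5.18, 0.201 and 10.1, a gene for which a low level is selected. Ly6a, which encodes Sca1, was at 0, 4.87 and 1.36 TPM against 0, 0, 0, 215 and 0. The groups overlapped for each of them, with adjusted p = 0.996. Of 12 genes for lineage markers removed by the sort, 7 were listed at 0 in all 8 libraries, and the summed level of the 12 was 28.5 to 194 TPM in Notch1+/dTAD and 7.85 to 266 TPM in WT. Single sort markers were thus missing from some libraries of either group, beside the high levels of Dntt and Ly6d given next.

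Genes of early lymphoid priming overlapped between the groups. None of the 10 genes on this list, all of them tested, was non-overlapping, and their median log2 difference was 0.45, against 0.47 over all tested genes. Dntt, which encodes the template-independent DNA polymerase of antigen receptor rearrangement, was at 3705, 3267 and 3902 TPM in Notch1+/dTAD and 7459, 3482, 4083, 5007 and 5060.2 TPM in WT. Ly6d, a surface marker of CLPs that are biased to the B lineage, was at 2302, 2065 and 1801 TPM against 1418, 2559, 1034, 727 and 271. All 3 Notch1+/dTAD values of Ly6d lay above 4 of the 5 WT values, and WT library 2 lay above them (log2 difference 1.12 ± 0.60 SE, n = 3 and 5, adjusted p = 0.952). Rag1, a subunit of the recombinase, was at 7.11, 33.9 and 0 TPM against 61.1, 16.7, 49.4, 0.106 and 0. Lck, a T cell kinase, was at 128, 174 and 93.8 TPM against 164, 0, 10.0, 108 and 1.15.

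**Figure D2:**
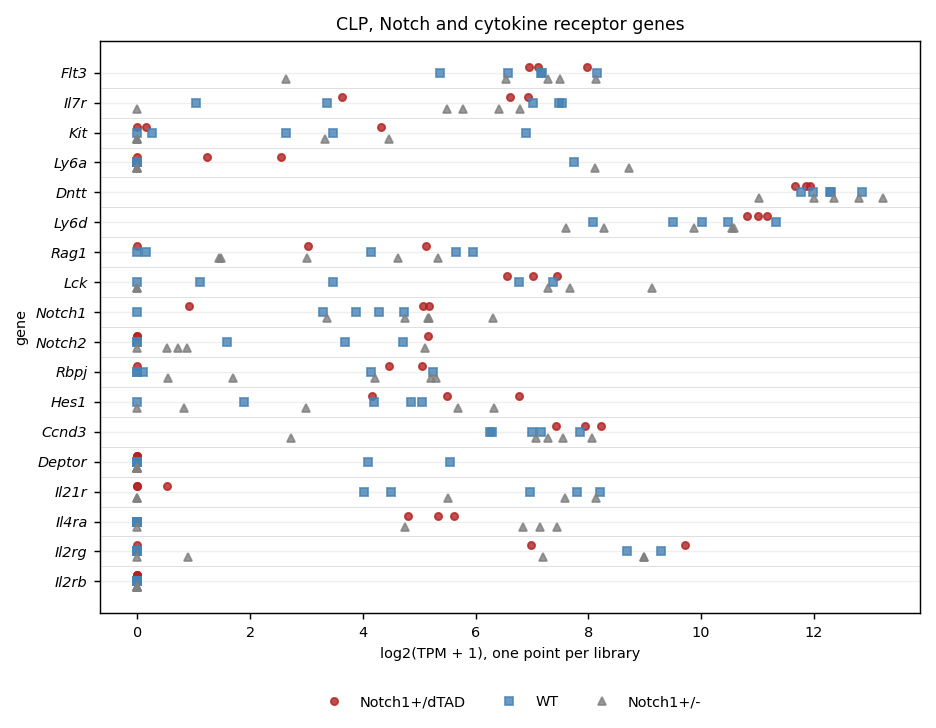
Expression on the log2(TPM + 1) scale (horizontal axis) of CLP, Notch pathway and cytokine receptor genes, with 1 point per library for Notch1+/dTAD (circles), WT (squares) and Notch1+/- (triangles). Il21r and Il4ra are the genes drawn whose Notch1+/dTAD and WT points do not overlap, with opposite direction, and sort markers spread over much of the axis in both groups.

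Transcription factors of the lymphoid program gave the same picture. Of 36 genes on this list 23 were tested, none was non-overlapping, and the median log2 difference was 0.42. Irf8, a factor of B and dendritic cell development, was at 1389, 976 and 786 TPM in Notch1+/dTAD and 562, 791, 1129, 300.5 and 691 in WT. Bcl11a, required for early lymphoid progenitors, was at 502, 438 and 155 TPM against 252, 417, 248, 119.7 and 308. Lmo2, an adaptor of stem and progenitor cell transcription complexes, was at 95.2, 0 and 0 TPM against 51.7, 222, 0, 7.29 and 197. These values show the large spread within each genotype.

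B lineage genes did not separate the genotypes. Of 20 B lineage markers 14 were tested, none was non-overlapping, and the median log2 difference was 0.32, below that of all tested genes. Vpreb1, a part of the surrogate light chain, was at 609, 985 and 65.2 TPM in Notch1+/dTAD and 0.745, 396, 841, 540.4 and 1.04 TPM in WT. Igll1, the other part, was at 259, 353 and 0 TPM against 51.4, 3.62, 0, 0 and 0. Pax5, which fixes the B cell fate, was at 0, 112 and 0 TPM against 46.6, 7.89, 0, 0 and 0. Their summed level was 2338 to 4114 TPM in Notch1+/dTAD and 611 to 3958 TPM in WT.

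Cd7 was the only T or NK lineage marker whose groups did not overlap. It encodes a surface glycoprotein of T, NK and early lymphoid cells and was at 402, 276 and 139.9 TPM in Notch1+/dTAD, was listed at 0 in all 5 WT libraries (adjusted p = 0.395), and was at 17.2, 0, 0, 0 and 0 TPM in Notch1+/-. All 3 Notch1+/dTAD libraries were thus high, and 1 of the 10 others listed the gene. Without a WT value, Cd7 passed the filter through the Notch1+/dTAD libraries alone and so had to differ. Of 27 T and NK markers with a row, 16 were at 0 in all 8 libraries, among them Cd3e, Cd3g, Thy1, Tcf7 and Bcl11b. The other 3 tested markers were Cd27 (83.8, 499.5 and 764 TPM against 266, 0, 340.2, 76 and 221), Nkg7 and Lck, and the median log2 difference of the 4 was 2.74. The summed level of the list was 624 to 1212 TPM in Notch1+/dTAD and 38.7 to 1306 TPM in WT, so these sums overlapped.

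Myeloid, erythroid and stem cell markers were looked at as signs of other cells in the gate. Of 25 myeloid markers 11 were tested and none was non-overlapping, with a median log2 difference of 0.95 and a summed level of 919 to 2839 TPM in Notch1+/dTAD and 937 to 2681 TPM in WT. S100a8, a granulocyte gene, was at 1015, 0 and 610.2 TPM against 1803, 0, 0, 0 and 452, while Csf3r, Itgam and Cebpe were at 0 in all 8 libraries. Of 21 erythroid and megakaryocyte markers 19 were at 0 throughout, and the summed level was 52.2 to 106 TPM against 0 to 91.1 TPM, nearly all of it Tfrc, which dividing cells of other kinds use as well. Of 16 stem and multipotent progenitor markers 9 were tested and none was non-overlapping (median log2 difference 0.46). The part of any such cells in the differences was not tested.

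The tested receptors, ligands and processing genes of the Notch pathway overlapped between the groups. Notch1 itself was at 32.4, 35 and 0.893 TPM in Notch1+/dTAD and 18.5, 25.7, 13.8, 0 and 8.83 TPM in WT (log2 difference 0.48 ± 1.93 SE, adjusted p = 0.996), and at 34.8, 35.1, 78.5, 25.8 and 9.27 TPM in Notch1+/-. A gene-level value sums both alleles, and 3′ reads need not come from the deleted part, so it does not check the genotype. Notch2 was at 34.6, 0 and 0 TPM against 25.2, 0, 0, 11.9 and 1.99, and Notch3 and Notch4 were at 0 in all 8 libraries. Of 26 receptors, ligands and processing genes 9 were tested, with a median log2 difference of -0.17, and 9 were at 0 throughout. Psenen, a gamma-secretase subunit, was at 5.3, 254 and 39.4 TPM against 369.6, 835, 0, 216 and 392. Fbxw7, which marks intracellular Notch for degradation, was at 91.8, 29.4 and 26.2 TPM against 27.1, 0, 3.02, 0 and 30.9. Lfng, a glycosyltransferase that changes how Notch receptors respond to ligands, was at 26, 7.49 and 0.568 TPM in Notch1+/dTAD and listed at 0 in all WT libraries, and it missed the filter for testing.

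The nuclear complex of Notch showed no non-overlapping gene among the 12 tested of 15 (median log2 difference 0.32). Rbpj, the DNA-binding partner, was at 0, 21 and 32.3 TPM in Notch1+/dTAD and 0.0758, 0, 37.1, 16.7 and 0 in WT. Maml1, a coactivator, was at 0 in all 8 libraries, whereas Maml3 was at 0.604, 17.7 and 0.109 TPM against 19.7, 103, 55.9, 2.29 and 0. Hdac1, a corepressor subunit, was at 265, 308 and 262 TPM against 192, 287, 187, 0 and 0. Kat2a, a histone acetyltransferase that Notch complexes recruit, was listed at 0 in Notch1+/dTAD and at 55.2, 43.5, 2.06, 1.19 and 0 TPM in WT (adjusted p = 0.952).

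Among Notch target genes, Il21r was the member whose groups did not overlap. Of 20 targets 8 were tested and 7 were at 0 in all 8 libraries, including Hey1, Heyl, Dtx1 and Tcf7. The median log2 difference of the tested targets was 0.78, and 7 of the 8 had a positive value, as did 61.8% of all tested genes. Above the median of all tested genes lay 5 of the 8. After quantile normalization the median of the targets was 0.17. Hes1, a repressor induced by Notch in many cells, was at 109, 44.2 and 16.9 TPM in Notch1+/dTAD and 17.3, 2.73, 27.9, 32.2 and 0 TPM in WT (log2 difference 2.28 ± 1.80 SE, adjusted p = 0.973). Myc, a growth regulator, was at 1.27, 0 and 6.16 TPM against 3.29, 0.0196, 0, 0 and 0.0946. Ccnd3, which encodes a cyclin needed by dividing lymphoid progenitors, was at 297, 245 and 170.3 TPM against 127, 230.1, 75.9, 77.3 and 142. Deptor, an inhibitor of mTOR, was at 0 in all Notch1+/dTAD and all Notch1+/- libraries and at 0, 0, 0, 45.5 and 16.1 TPM in WT, so 2 of the 5 WT libraries listed it and it was not tested.

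Il21r encodes the receptor for IL-21, which acts through the common gamma chain and JAK-STAT signaling. It was at 0, 0 and 0.447 TPM in Notch1+/dTAD and at 223, 15.2, 125, 21.6 and 295 TPM in WT, so every WT library lay above every Notch1+/dTAD library. The log2 difference was -6.12 ± 1.73 SE (n = 3 and 5), or -6.59 relative to all tested genes, and the adjusted p was 0.433. In Notch1+/- it was at 191, 0, 0, 44.6 and 280.0 TPM, where 3 libraries resembled WT and 2 were at 0. Il21r is among the genes the study itself named on these libraries, so its place here is no independent evidence. The study had further evidence that was not examined here. It reported lower Il21r by quantitative PCR of sorted Notch1+/dTAD CLPs and in early cultures with a gamma-secretase inhibitor. It also reported a functional RBPJ site in an intron of the human gene.

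Il4ra, the gene next to Il21r, had the opposite pattern. It encodes the IL-4 receptor alpha chain and was at 39.2, 26.8 and 48 TPM in Notch1+/dTAD, was listed at 0 in all 5 WT libraries (adjusted p = 0.417), and was at 173, 139.7, 114, 0 and 26 TPM in Notch1+/-. Without a WT value, Il4ra passed the filter through the Notch1+/dTAD libraries alone and so had to differ. In the GENCODE M21 annotation of GRCm38 (mm10), Il4ra lies at chr7:125552120-125579474 and Il21r at chr7:125603429-125633570 on the plus strand, 23954 bp apart, with no annotated gene in between. Il2rg, the common gamma chain itself, was at 840.1, 0 and 126 TPM against 628, 0, 0, 409.7 and 0, and Il2rb was at 0 in all 8 libraries. Crlf2, a chain of the TSLP receptor, was at 0, 18 and 13.9 TPM against 96.3, 4.49, 65, 49.1 and 52. Over the list of gamma chain receptors and JAK-STAT genes 13 of 24 were tested, with Il4ra higher and Il21r lower as the 2 non-overlapping genes and a median log2 difference of 0.44.

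The promoters of this gene pair are shown because its members differ in opposite directions, and those of Mcm3 and Snd1 because they had lower values in Notch1+/dTAD and hold an RBPJ motif. Each window runs from 250 bases before to 50 bases after the annotated start (RefSeq, GRCm38.p6) and is printed 5′ to 3′ on the strand of the gene. Capitals mark the motif GTGGGAA or its reverse complement TTCCCAC. The windows are chr7:125603179-125603478 (plus strand), chr7:125552021-125552320 (plus strand), chr1:20820263-20820562 (minus strand) and chr6:28480098-28480397 (plus strand).
Il21r: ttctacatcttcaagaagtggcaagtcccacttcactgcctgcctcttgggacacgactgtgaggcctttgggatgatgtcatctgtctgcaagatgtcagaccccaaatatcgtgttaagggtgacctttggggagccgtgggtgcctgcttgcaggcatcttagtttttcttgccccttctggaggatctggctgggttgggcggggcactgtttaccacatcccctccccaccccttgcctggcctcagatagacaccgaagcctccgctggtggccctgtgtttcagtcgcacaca
Il4ra: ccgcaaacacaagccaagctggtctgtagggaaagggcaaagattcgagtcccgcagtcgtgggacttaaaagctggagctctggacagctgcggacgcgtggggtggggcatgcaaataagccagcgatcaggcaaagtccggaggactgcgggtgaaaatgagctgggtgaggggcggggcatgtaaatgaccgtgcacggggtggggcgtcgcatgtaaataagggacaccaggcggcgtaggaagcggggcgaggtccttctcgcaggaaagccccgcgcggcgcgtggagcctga
Mcm3: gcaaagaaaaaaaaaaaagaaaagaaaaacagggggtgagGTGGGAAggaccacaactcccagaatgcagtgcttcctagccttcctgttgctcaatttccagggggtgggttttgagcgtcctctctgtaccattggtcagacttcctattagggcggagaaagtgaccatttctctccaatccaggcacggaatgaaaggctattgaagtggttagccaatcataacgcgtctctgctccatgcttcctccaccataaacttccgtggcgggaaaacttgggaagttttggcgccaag
Snd1: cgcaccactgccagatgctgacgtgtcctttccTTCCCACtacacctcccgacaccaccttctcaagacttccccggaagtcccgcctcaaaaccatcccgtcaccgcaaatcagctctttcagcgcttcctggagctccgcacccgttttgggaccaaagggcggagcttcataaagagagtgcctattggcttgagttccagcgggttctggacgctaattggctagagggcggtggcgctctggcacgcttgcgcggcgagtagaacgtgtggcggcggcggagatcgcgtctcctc
These letters do not occur in the Il21r and Il4ra windows on either strand, which says nothing about RBPJ binding elsewhere. Of the 3809 tested genes with a promoter in the reference, 6.80% held the motif, as did 6.38% of all 32851 windows. Among the non-overlapping genes it occurred in 3 of 95 higher genes (3.16%: Naa15, Srsf9 and Tmem248) and in 4 of 29 lower genes (13.8%: Mcm3, Mier1, Ppp1r18 and Snd1). These shares are descriptions and carry no test.

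Many more genes were detected in all Notch1+/dTAD and no WT libraries than the reverse. Listed in all 3 Notch1+/dTAD libraries and in no WT library were 72 of the 9215 genes (0.781%), whereas 2 genes (0.0217%) were listed in all 5 WT libraries and in no Notch1+/dTAD library. Leaving out a library moved the first count to between 95 (without WT library 3) and 192 (without Notch1+/dTAD library 9) and the second to between 6 and 12, so each of the 8 libraries decides many of these memberships. The 72 genes made up 0.278% to 0.387% of TPM in Notch1+/dTAD, and 31 of them were tested, which passed the filter through the Notch1+/dTAD libraries alone and so had to differ. Of the 72, 49 were listed in 2 or more Notch1+/- libraries and 7 in none. Of all genes listed in exactly 3 of the 8 libraries there were 1171, and of those listed in exactly 5 there were 880. Every Notch1+/dTAD library also listed more genes than every WT library (4706 to 5764 against 3744 to 4614). The part of this in both counts was not tested. An exact 0 in a TPM table can be a failed estimate: Pfn1, which encodes the abundant actin-binding protein profilin, is among the 72 at 0.75, 48.1 and 163 TPM, and Gapdh was at 43, 1.12, 0, 11 and 0 TPM in WT.

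**Figure D3:**
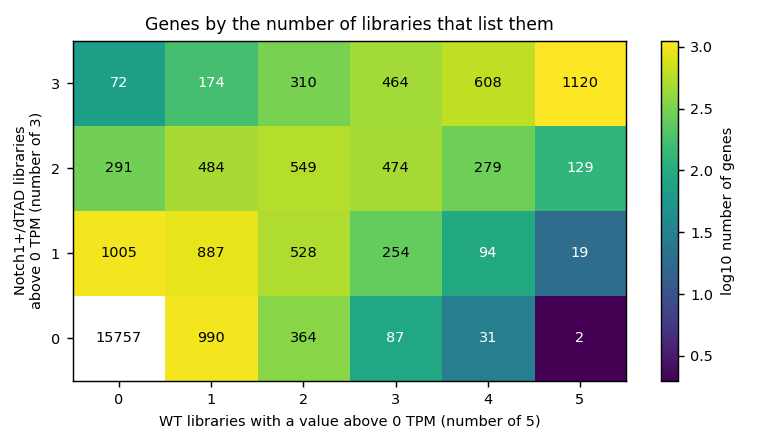
Number of genes (printed, with color on a log10 scale) by how many of the 5 WT libraries (horizontal axis) and how many of the 3 Notch1+/dTAD libraries (vertical axis) gave a value above 0 TPM. In the upper left cell 72 genes are in all Notch1+/dTAD and no WT libraries, in the lower right cell 2 genes show the reverse, and 15757 genes have no value in any of the 8.

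The 8 most abundant of the 72 genes had housekeeping roles for the most part. Psma5, a subunit of the proteasome core, was at 248, 216 and 301 TPM in Notch1+/dTAD and at 47.6, 337, 0, 0.59 and 0.548 TPM in Notch1+/-. Isca2, which helps to assemble mitochondrial iron-sulfur clusters, was at 279, 381 and 84.2 TPM in Notch1+/dTAD. Mcts1, a translation re-initiation factor, was at 430.0, 168 and 65.2 TPM in Notch1+/dTAD and at 1.56, 81.4, 62.5, 192 and 321 TPM in Notch1+/-. Mcts1 was thus listed in every Notch1+/- library as well, and in no WT library.

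The other members of these 8, beside Cd7, were at 0 in all WT libraries as well, which is the rule that chose them. Haus7, a subunit of the augmin complex of the mitotic spindle, was at 5.3, 173 and 410.1 TPM in Notch1+/dTAD. Sirt2, a deacetylase of tubulin and histones, was at 209.6, 261 and 58.8 TPM there and in Notch1+/- had a value in 1 library only, at 0.33 TPM. Mrpl50, a mitochondrial ribosomal protein, was at 87, 138 and 148 TPM and Naa38, an auxiliary subunit of an amino-terminal acetyltransferase, at 40.9, 90.1 and 325 TPM. Adjusted p-values of the 8 lay between 0.395 and 0.417. The 2 genes of the reverse pattern were Chmp2b, a subunit of the ESCRT-III membrane scission complex, at 52, 21.2, 75.5, 53.4 and 31.3 TPM in WT, and Kctd5, an adaptor of a ubiquitin ligase, at 0.497, 45.4, 135, 0.328 and 3.47 TPM in WT.

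Of the 12 higher non-overlapping genes with the smallest p, 10 were listed at 0 in all WT libraries. Beyond those already described, they include Fam110a, at 50.7, 54 and 50.5 TPM in Notch1+/dTAD, the narrowest range of the 12. Cops3, a subunit of the COP9 signalosome that removes NEDD8 from ubiquitin ligases, was at 147, 51.8 and 21.6 TPM. Znhit1, a subunit of a chromatin remodeler that deposits H2A.Z, was at 56.3, 159 and 65.9 TPM in Notch1+/dTAD and at 0, 0, 0.237, 0 and 0 TPM in WT. Timm13, a chaperone of the mitochondrial intermembrane space, was at 113, 140.4 and 88.9 TPM against 0, 0.483, 0, 0.547 and 0. For the last pair the log2 differences were 6.35 ± 1.55 SE and 6.58 ± 1.62 SE, and adjusted p was 0.417 for both.

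The 12 lower non-overlapping genes were led by a splicing gene. Snrpc, a protein of the U1 snRNP, which recognizes 5′ splice sites, was at 3, 0 and 0.771 TPM in Notch1+/dTAD and 209, 264, 241, 167 and 341 TPM in WT (log2 difference -6.96 ± 1.31 SE, -7.43 relative to all tested genes, adjusted p = 0.395). In Notch1+/- it was at 1.29, 0, 0, 345 and 69.4 TPM. Its smallest WT value was 167 TPM and its largest Notch1+/dTAD value 3.00 TPM. Cnpy2, an endoplasmic reticulum protein, was at 0, 2.88 and 1.69 TPM against 83.5, 452, 225, 275 and 64.8 (log2 difference -6.31 ± 1.42 SE, adjusted p = 0.395). Ablim1, an actin-binding LIM protein, was at 0, 0 and 0.419 TPM against 91.9, 231, 121, 61 and 40.0.

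The long noncoding RNA Snhg20, a host gene of a small nucleolar RNA, was at 1.22, 1.9 and 2.2 TPM in Notch1+/dTAD and 206, 230.1, 219.5, 169 and 13.9 TPM in WT. Chtf8, a subunit of the clamp loader used in sister chromatid cohesion, was at 2.57, 27.4 and 11.7 TPM against 153, 183, 236, 336 and 163, and since overlapping GENCODE M21 genes carry this symbol its source is uncertain. Tmx1, a thioredoxin-like membrane protein of the endoplasmic reticulum, was at 0, 0.122 and 1.05 TPM against 18.6, 15.2, 66.8, 109 and 72.2, and is also among the genes named by the study on these libraries. Anapc5, a subunit of the anaphase-promoting complex, was at 0, 12.2 and 4.88 TPM against 174, 356, 15.3, 204 and 72.1. None of the adjusted p-values of these 4 genes was below 0.417.

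**Figure D4:**
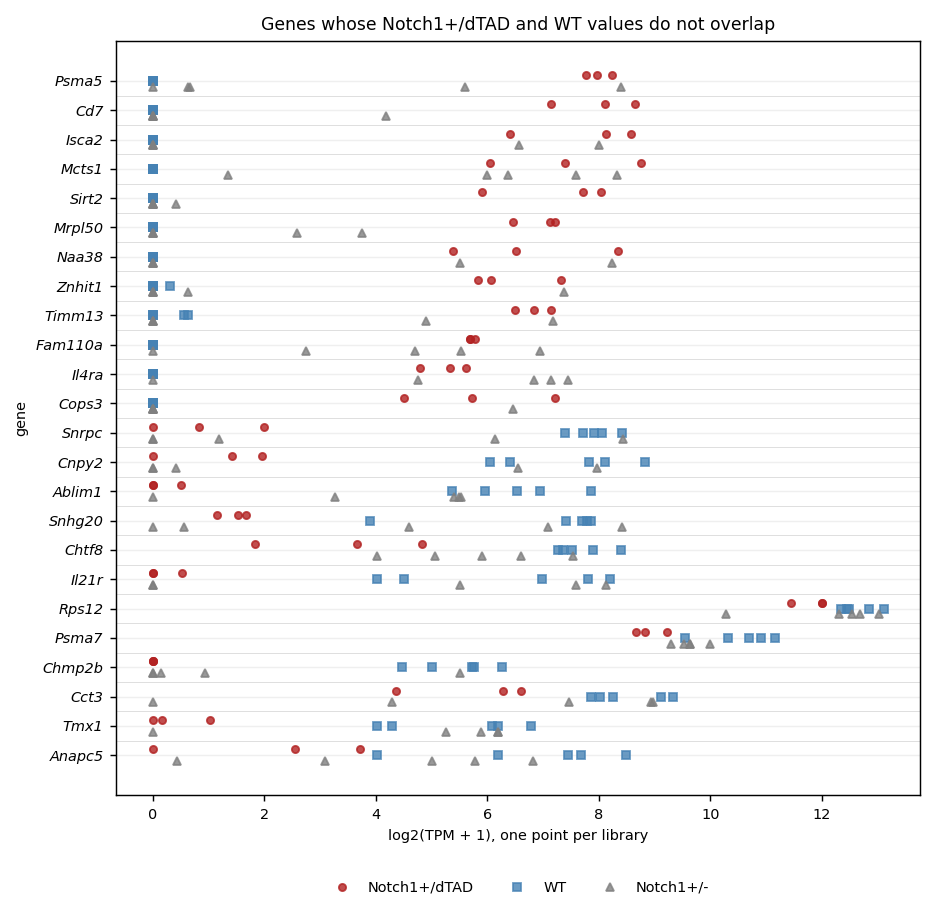
Expression on the log2(TPM + 1) scale (horizontal axis) of the 12 higher and 12 lower non-overlapping genes with the smallest p, with 1 point per library for Notch1+/dTAD (circles), WT (squares) and Notch1+/- (triangles). In 10 of the 12 higher genes all WT points lie at 0, and Notch1+/- points spread over both ranges for most genes.

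Proteasome subunits had 1 non-overlapping gene in each direction (over all tested genes 2.39% were higher and 0.739% lower). Of 50 genes 43 were tested, 4 had higher and 1 had lower values at an unadjusted p under 0.05 (4.14% and 0.866% over all tested genes), and the median log2 difference was 1.28, with 28 of the 43 above the median of all tested genes. Psma5 has been given above. Psma7, another alpha subunit of the same ring, was at 452, 598 and 406 TPM in Notch1+/dTAD and 2289.8, 1276, 1909, 746 and 1659 TPM in WT, so the groups did not overlap and all 8 libraries listed it (log2 difference -1.62 ± 0.49 SE, adjusted p = 0.511). Psmb5, the subunit with chymotrypsin-like activity, was at 581, 515 and 73.3 TPM against 0, 0, 291, 99 and 15.6. The summed level of the subunits was 9356 to 10032 TPM in Notch1+/dTAD and 7358 to 12440 TPM in WT, so the totals overlapped. Ubiquitin conjugation genes had 26 tested of 42 and a median of 1.00, with Ube2a and Ube2d3 non-overlapping and higher, although the groups of Ube2a overlapped after quantile normalization. Ube2d3, an E2 enzyme, was at 139.6, 113 and 49.9 TPM against 42.3, 0, 30.6, 4.43 and 15.6.

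The chaperone list held 2 non-overlapping genes of 46 tested, both lower in Notch1+/dTAD and both subunits of the chaperonin CCT, which folds actin and tubulin. Cct3 was at 96.3, 19.6 and 76.8 TPM in Notch1+/dTAD and 259, 303, 232, 640.5 and 552 TPM in WT (log2 difference -2.76 ± 0.90 SE, adjusted p = 0.68). Cct2 was at 2.43, 108 and 88.8 TPM against 262, 329.9, 139, 129.7 and 282 (log2 difference -2.73 ± 1.25 SE, adjusted p = 0.952). Hsp90ab1, the cytosolic HSP90 beta chaperone and the most abundant on the list, was at 6946, 7554 and 9555 TPM against 9586, 8355, 6016, 7843 and 8409. Over the 46 tested of 86 chaperones the median log2 difference was 0.36, and over all tested genes 0.739% were non-overlapping and lower. At an unadjusted p under 0.05, 1 chaperone had higher values (Cdc37) and 2 had lower values (Cct2 and Cct3). Over all tested genes these shares were 4.14% and 0.866%. Hspbp1, a cofactor of HSP70 that is not on the list, was non-overlapping and higher and is given below.

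Splicing factors had 5 non-overlapping genes among 77 tested of 91, with 3 higher and 2 lower (2.39% and 0.739% over all tested genes) and a median of 0.47. Srsf4 and Srsf9, serine-rich splicing regulators, were higher, Srsf9 at 37.7, 51.8 and 37.2 TPM in Notch1+/dTAD and 3.42, 0, 2.14, 0 and 1.69 TPM in WT. Snrpb2, a protein of the U2 snRNP, was at 540.1, 528 and 551 TPM against 131, 432, 355, 502 and 233. Prpf39, a U1-associated factor like Snrpc in its particle, was at 0.807, 2.36 and 0 TPM against 34.5, 12.8, 21.2, 58.8 and 27.3. The summed level of the list was 18229 to 18895 TPM in Notch1+/dTAD and 15136 to 20313 TPM in WT.

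Cytosolic ribosomal protein genes had log2 differences close to 0 for the most part, with quartiles at -0.19 and 0.28. Of 87 genes 81 were tested, the median log2 difference was 0.09, and 13 of the 81 lay above the median of all tested genes. Rps12 was at 4108, 2782 and 4082 TPM in Notch1+/dTAD and 5565, 5735, 5209, 8840.0 and 7377 TPM in WT (log2 difference -0.83 ± 0.25 SE, adjusted p = 0.511), so the groups did not overlap. Rps4x was at 5207, 4334 and 5363 TPM against 3769, 2867, 2162, 4175 and 3623 (log2 difference 0.61 ± 0.27 SE), and Rpl28 and Rpl12 were non-overlapping and higher too. These 3 lay 0.095 to 0.14 above the median of all tested genes, so that relative to it they differed little, and the groups of Rpl12 overlapped after quantile normalization. Over all tested genes 2.39% were non-overlapping and higher and 0.739% were non-overlapping and lower.

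Mitochondrial ribosomal protein genes had a higher median. Of 79 genes 52 were tested, 6 had higher and none had lower values at an unadjusted p under 0.05 (4.14% and 0.866% over all tested genes), and the median log2 difference was 1.25, with 35 of the 52 above the median of all tested genes. Mrpl50 has been given above, and it was the only non-overlapping gene of the list. Mrpl14 was at 167, 172 and 1.36 TPM in Notch1+/dTAD and 0, 0, 0, 1.41 and 0 in WT, and Mrps21 at 1622, 819 and 625 TPM against 911, 192, 743, 0 and 484. Many of these genes were listed in some libraries only, and the summed level was 4336 to 7304 TPM in Notch1+/dTAD and 3881 to 6091 TPM in WT.

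The lists of translation factors and aminoacyl-tRNA synthetases held no non-overlapping gene; Mcts1, given above, is not on them. Translation factors had 46 tested of 66 and a median of 0.37, and aminoacyl-tRNA synthetases had 17 of 34 and a median of 0.09. Eef1a1, the elongation factor that brings tRNA to the ribosome, was at 4008, 8949 and 6684 TPM in Notch1+/dTAD and 6029, 7191, 7092, 5267 and 4615 TPM in WT. Among small nucleolar RNAs and host genes 11 of 136 were tested, with Snhg20 as the non-overlapping gene and a median of 0.68. Their summed level was 40228 to 45637 TPM in Notch1+/dTAD and 55831 to 90431 TPM in WT, without overlap, but this sum was not tested. Most of it came from Snord89 and Snhg9, and each of these overlapped between the groups. Snord89, a short RNA, was at 20253, 0 and 7385 TPM against 28781, 27689, 82369.6, 61536 and 0. Snhg9 was at 19164, 36412 and 19650 TPM against 18372, 21201, 1611, 21750 and 54358 (log2 difference 0.68). TPM divides by gene length, so short genes such as these take large shares.

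Mitochondrial genes encoded in the nucleus overlapped for the most part. Of 77 subunits of oxidative phosphorylation 72 were tested, with a median of 0.48. Uqcrb, a subunit of complex III, was at 120.4, 0 and 139 TPM in Notch1+/dTAD and 338, 348, 389, 356 and 528 TPM in WT, and Cox6b1, a subunit of complex IV, at 629, 872 and 831 TPM against 1214, 1103, 2065, 1524 and 1083, both without overlap. Mitochondrial protein import had 23 tested of 33, a median of 1.25 and Timm13 and Pmpcb as non-overlapping genes, both higher. Over all tested genes 2.39% were non-overlapping and higher and 0.739% were non-overlapping and lower. Pmpcb, the catalytic subunit of the protease that removes targeting peptides, was at 156, 267 and 144 TPM against 0, 1.63, 0, 5.68 and 1.41 (log2 difference 6.43 ± 1.70 SE, adjusted p = 0.417). Iron-sulfur cluster assembly had 11 tested of 24, with Isca2 as the non-overlapping gene and a median of 0.49. Glycolytic enzymes had 9 tested of 20, none non-overlapping and a median of 0.78. No gene encoded by the mitochondrial genome was found in the table under its usual symbol.

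The lists of cell cycle, DNA replication and histone genes each held 1 non-overlapping gene. Of 38 cell cycle genes 33 were tested, with a median of 0.86. Plk1, a mitotic kinase, was at 321, 261 and 105 TPM in Notch1+/dTAD and 0, 89, 0.275, 0.424 and 0 TPM in WT (adjusted p = 0.588), whereas Top2a, an enzyme of dividing cells, was at 659, 1089 and 637 TPM against 497, 899, 486, 553 and 614. Of 45 DNA replication genes 33 were tested, with a median of 0.74. Mcm3, a subunit of the replicative helicase, was at 177, 31.4 and 184 TPM against 515, 264, 532, 356 and 381 (log2 difference -1.96 ± 0.84 SE, adjusted p = 0.943), while Mcm7 of the same complex was at 717, 653 and 798 TPM against 635, 717, 849, 739.7 and 147. Hist1h1b, a linker histone, was at 943, 655 and 587 TPM against 548, 1.21, 0.937, 96.2 and 0, the only non-overlapping gene of 28 tested high mobility group and histone genes (median 0.31). Many histone genes are near-identical copies whose reads can be split by the counting, so values on this list are uncertain.

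Growth and survival lists held no non-overlapping gene. mTOR complexes had 14 tested of 26 and a median of 1.21, with Lamtor3, a scaffold on lysosomes, at 226, 443 and 1.09 TPM in Notch1+/dTAD and 0, 35.5, 0, 0 and 0 TPM in WT. Apoptosis regulators had 15 tested of 33 and a median of 0.27. Pdcd5, an apoptosis-associated protein, was at 1.51, 528 and 66.5 TPM against 443, 1335, 184, 627 and 828, and Bcl2, the survival factor, at 49.7, 83.8 and 23 TPM against 4.37, 32.8, 75.5, 0.18 and 3.41. Both genes overlapped between the groups.

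Antigen presentation was led by Cd74, the invariant chain of MHC class II. It was at 424, 452 and 462 TPM in Notch1+/dTAD and 0.73, 393, 0.895, 303 and 0 TPM in WT, so the 3 mutant libraries were close to each other and 2 of the 5 WT libraries lay below them while 3 were near 0, without overlap (adjusted p = 0.923). H2-Aa, a class II chain, was at 287, 0 and 55.7 TPM against 0, 727, 0, 0 and 0. Class II genes had 7 tested of 10 and a median of 0.78, with Cd74 as the non-overlapping gene. Class I genes with peptide loading had 12 of 17 and a median of 0.31, with none non-overlapping. Interferon response genes had 12 tested of 23 and a median of 1.13, none of them non-overlapping.

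Cytoskeleton, adhesion and activation lists held 1 non-overlapping gene, Arpc3. Actin genes had 43 tested of 46 and a median of 0.34. Arpc3, a subunit of the Arp2/3 complex that branches actin filaments, was at 2319, 2707 and 2757 TPM in Notch1+/dTAD and 594, 1439, 1122, 1296 and 1190.2 TPM in WT (log2 difference 1.26 ± 0.40 SE, adjusted p = 0.59), without overlap and listed in all 8 libraries. Actb was at 3772, 3163 and 2458 TPM against 2713, 3644, 3319, 1608 and 2641. Homing and adhesion receptors had 11 tested of 20 in the table and a median of 0.63, and immediate early genes had 10 of 21 and a median of 0.95 (-0.24 after quantile normalization), neither with a non-overlapping gene. Cxcr4, which holds progenitors in the marrow, was at 81.9, 106 and 60.2 TPM against 0, 116, 138, 54.3 and 40.8.

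**Figure D5:**
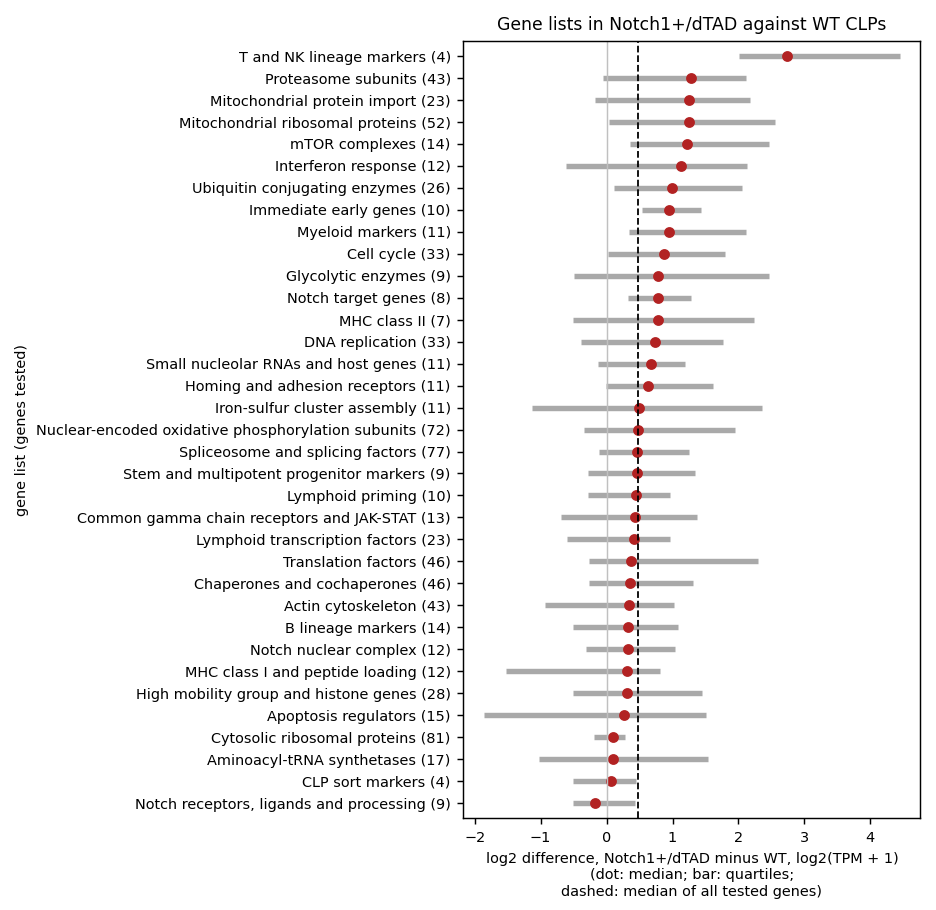
Log2 difference of Notch1+/dTAD minus WT on the log2(TPM + 1) scale (horizontal axis) for each gene list with at least 4 tested genes, with the median (dot), the 25th to 75th percentile (bar) and the number tested (in parentheses). The dashed line is the median of all tested genes at 0.47; proteasome subunits lie at 1.28 and cytosolic ribosomal proteins at 0.09, and most bars cross the line.

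Genes listed in all 8 libraries are those whose differences rest on values in every mouse. Of these 1118 genes, 17 were non-overlapping and higher and 20 were non-overlapping and lower, a set chosen after the values were seen. Beyond those named above, Ppp1r18, a regulator of protein phosphatase 1, was at 40.1, 44 and 24.1 TPM in Notch1+/dTAD and 139, 147, 119, 138 and 139 TPM in WT. Tsc22d4, a leucine zipper protein, was at 24.1, 22.5 and 17.4 TPM against 84.5, 107, 81.6, 91.3 and 63. Nol7, a nucleolar protein, was at 21.9, 55 and 68.1 TPM against 147, 280.3, 218, 82.9 and 180.1. All 3 were lower in each Notch1+/dTAD library.

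On the higher side of the same set, Plac8, which CLPs and other progenitors express at a high level, was at 2442, 2153 and 2811 TPM in Notch1+/dTAD and 1647, 1835, 1576, 2078 and 1856 TPM in WT. Its log2 difference was 0.46 ± 0.31 SE, which is -0.02 relative to all tested genes, and its groups overlapped after quantile normalization. Pebp1, an inhibitor of RAF kinase signaling, was at 776, 758 and 698 TPM against 627, 300.4, 165, 298 and 419. Hspbp1 was at 136, 156 and 226 TPM against 11.6, 42.8, 47.6, 55.2 and 0.565. Adjusted p was between 0.417 and 0.996 over these 37 genes.

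In either direction, most non-overlapping genes had a Notch1+/- mean nearer to the group with the lower values. Of the 113 higher genes 34 had a Notch1+/- mean on the log2 scale nearer to Notch1+/dTAD and 79 one nearer to WT. Of the 35 lower genes 25 were nearer to Notch1+/dTAD and 10 nearer to WT. The median number of genes above 0 TPM was 3868 in Notch1+/- libraries, 4973 in Notch1+/dTAD and 3904 in WT. The part of this number in the positions was not tested. Both comparisons would use the same WT libraries, so these are positions and not an independent replication.

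Genes close to Notch1 on the chromosome held no non-overlapping gene. Over all tested genes 2.39% were non-overlapping and higher and 0.739% lower, so an absence among 40 genes says little. Of 40 tested genes within 5 Mb of Notch1 none was non-overlapping, 1 had a higher and none had a lower value at an unadjusted p under 0.05, and the median log2 difference was 0.62. This window was chosen after the values were seen. Of the 30 genes the study printed as differing on these libraries, 8 passed the filter here, 2 were non-overlapping and lower (Il21r and Tmx1), and the 30 summed to 0.28 to 3.65 TPM in Notch1+/dTAD and to 665 to 1869 TPM in WT. That list was chosen on these libraries and is no independent evidence of its direction.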

How the data were processed

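Series-wide tables of TPM per gene were used. Per the authors' methods and the labels, RNA of CLPs sorted per mouse was made into strand-specific QuantSeq 3′ libraries with low-input steps, reads were trimmed with FASTQ Toolkit, aligned with STAR to mm10, and the deposited TPM values were computed by the authors; how reads were counted is not given in the sources used here. TPM holds no counts, so depth is unknown, a count test was not possible and precision rests on the spread between libraries. A 3′ library gives reads from the transcript end, and division by gene length then raises short genes over long ones. All columns used were mapped to a sample by name, and the authors' own comparisons were not used.

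Genes with at least 1 TPM in at least 3 of the 8 libraries were tested on log2(TPM + 1) with limma 3.58.1 (R 4.3.3; trend in the variance, moderated by empirical Bayes) and adjusted by Benjamini-Hochberg; a fold change on this scale understates the change of low genes. The test was checked on simulated data. Without an added change no simulated gene passed the adjusted threshold. Where a large change was added to some genes, most of these genes did not pass it either. A gene that does not pass may therefore still differ. Library measures were compared by a 2-sided exact permutation test on the difference of means. Standard errors are from the same fit. Tables were joined with Python 3.11.15 and pandas 2.3.3. Gene positions are from GENCODE M21 (GRCm38) and promoters from RefSeq (GRCm38.p6).

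The members of the comparison, its 40 gene lists and its named genes were chosen with earlier results of these data known. Named are the 12 higher and 12 lower non-overlapping genes with the smallest p, the 8 most abundant genes detected in a single group, up to 4 examples per list (non-overlapping genes first, then the highest mean TPM) and genes the study discusses for CLPs; further genes were named after their values were seen (Ppp1r18, Tsc22d4, Nol7, Plac8, Pebp1, Hspbp1, Pfn1, Gapdh, Lfng, Xist, Eif2s3y, and list members outside the 4 examples). The list of mitochondrially encoded genes had 0 members in the table, and the list of X inactivation and Y chromosome genes had 1 tested gene, Xist (log2 difference -0.67). Alternatives were the pseudocount, the filter, the scaling, the variance model, a term for the library number range, a model of all 13 libraries and leaving out each library.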

Additional observations from a re-analysis of the deposited data

Results flagged for a closer look

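In 4 of 41 sets of 5 WT values, the highest or lowest library stood far from the others by Dixon's test at the 95% level, where chance gives about 1 in 20. In 2 of the 4, Ly6a and Znhit1, a single library is above 0, which passes that level by construction. Kit, the receptor for stem cell factor, reached 118 TPM in WT library 1, with the other WT values at 10.1 TPM or less. Ly6a was at 215.0 TPM in WT library 10 and at 0 in the other 4 WT libraries. Snhg20 was at 13.9 TPM in WT library 11, below the other WT values of 169 to 230.1 TPM and above all Notch1+/dTAD values. Znhit1 was at 0.237 TPM in WT library 3 and at 0 in the other 4, so that this value marks a gene with nearly no WT signal.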

How the results depend on the processing

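The count of 0 genes past the adjusted threshold held under every alternative except 2: limma without a variance trend called 15 genes, and a model of all 13 libraries called 5 (Cab39l, Cd7, Clec9a, Sirt2 and Slc36a1). None of the 5 had 1 TPM or more in any WT library. They passed the filter through the Notch1+/dTAD libraries alone and so had to differ, as did most of the 15. Genes higher at an unadjusted p under 0.05 numbered 355 without the filter on low values, 80 with at least 1 TPM in at least 5 libraries and 129 after quantile normalization, and genes lower numbered 70 after quantile normalization. With a library number range term the counts were 192 and 44. The median log2 difference was 0.18 with a pseudocount of 10 and -0.035 after quantile normalization. Non-overlapping higher genes numbered 53 under the 5-library filter, and lower ones 121 after quantile normalization. Genes listed in all Notch1+/dTAD and no WT library numbered 46 at 1 TPM and 34 at 10 TPM, and the reverse pattern 4 and 9.

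Leaving out each library gave 110 to 200 higher and 29 to 61 lower genes at an unadjusted p under 0.05. The higher count was 110 without Notch1+/dTAD library 7, 119 without library 9 and 120 without library 14, against 196 with all 8 libraries. It gave 159 to 259 higher and 64 to 72 lower non-overlapping genes, 95 to 192 genes listed in all Notch1+/dTAD and no WT library and 6 to 12 of the reverse. With fewer libraries less is asked of a gene, so counts without overlap grow by construction.

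Alternative values were tallied for the 12 higher and 12 lower non-overlapping genes with the smallest p and tested genes the study discusses for CLPs. Of these 589 values, 17 changed sign, all in genes with adjusted p of 0.996 and overlapping groups. Other genes named above, outside this tally, changed sign too. Myc (limma adjusted p = 0.985) was at -0.24 after quantile normalization, and Snord89 lay between -6.40 and 1.22 over the alternatives. Notch1 was at -0.29 after quantile normalization and between -0.33 and 1.88 without a single library. Notch2 was at 0.078 with a pseudocount of 10 and between -1.996 and 0.58 without a library. Il2rg was between -0.10 and 4.76 without a library, the lowest without Notch1+/dTAD library 7. Il7r was at -0.60 after quantile normalization and between -0.62 and 1.49 without a library. Ly6a was at 0.95 with a pseudocount of 0.1 and between -0.68 and 0.34 without a library. The cause of these moves was not tested. Of 737 alternative list medians 222 moved by more than the spread between WT libraries, 0.27. No paired analysis was possible because the groups share no library number. Depth is unknown, and 3 libraries against 5 limit every p.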

Other observations

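Of the non-overlapping genes outside the lists, 8 are given here, picked after their values were seen, and they stand for no group. Sla, a Src-like adaptor that tunes antigen receptor signaling, ranged from 82.1 to 247 TPM in Notch1+/dTAD and from 0 to 1.81 TPM in WT. Clec9a, a receptor of dendritic cells, was at 11.1 to 41.2 TPM and was listed at 0 in WT. Pak1, a kinase downstream of Rac, was at 17.1 to 41.2 TPM and was listed at 0 in WT. Pycard, the adaptor of inflammasomes, was at 42.9 to 107 TPM against 0 to 39.0 TPM.

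Tet3, which oxidizes methylcytosine, was at 14.1 to 22.2 TPM in Notch1+/dTAD and 0 to 0.769 TPM in WT. Men1, the scaffold menin, was at 22.0 to 103 TPM against 0 to 1.80 TPM. Bap1, a histone H2A deubiquitinase, was at 10.5 to 63.7 TPM against 0 to 7.22 TPM. The transcription factor Mef2a was on the lower side, at 0 to 0.013 TPM against 2.49 to 6.72 TPM. Of the 8 libraries' 35715 values above 0 TPM, 16.0% were under 1 TPM and 67.9% were at 10 TPM or more.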
